A study of Mus musculus with 23 samples.

Results

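The transcription factor p53 and 9 of its direct targets were followed in cell lines of murine pancreatic ductal adenocarcinoma (PDAC). The genes were chosen by symbol: Trp53, which encodes p53, and Cdkn1a, Mdm2, Ccng1, Zmat3, Fas, Perp, Phlda3, Sesn2 and Trp53inp1. A probe set was taken for a gene where the annotation of the array gave that symbol alone, and where a gene had several, the one with the highest mean over the lines stood for it. Of the 10 genes, 9 had a probe set. They held 16 of the 45037 probe sets tested, and 18193 genes were named in all. No probe set carried the symbol Trp53 alone in the annotation used here, so its own transcript was not analysed.

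p53 is activated by DNA damage, by oncogenic signalling and by other stresses, binds DNA as a tetramer and raises the transcription of genes for cell cycle arrest, DNA repair, apoptosis and metabolism. Its level is held down by Mdm2, a ubiquitin ligase that is itself a p53 target, which closes a negative feedback loop. Mutation of the gene is common in PDAC, and the murine R172H allele corresponds to a hot spot of the human gene that changes the structure of the DNA-binding domain.

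RNA of 23 lines from 14 mice was measured, 1 array per line. The cultures were of low passage and untreated, and they served a study of the response to the PI3K and mTOR inhibitor Bez235. The R172H group held 6 lines of 4 mice. All 6 carried LSL-p53R172H/+, where LSL marks an allele that is silent until Cre removes a stop cassette. PPT-3107, PPT-5193, ASC-5193 and PPT-5486 carried Ptf1aCre/+, and PPT-5486 also LSL-PCNAIRES-fLuc/+, whereas PPT-6051 and B-6051 carried Pdx1-Cre. The group with no listed Trp53 allele held 7 lines of 7 mice. PPT-3250 carried Pdx1-Cre with LSL-PCNAATG-fLuc/+ and LSL-R26Tva-lacZ/+, and the other lines carried Ptf1aCre/+, with no reporter allele listed in PPT-5748, with LSL-PCNAIRES-fLuc/+ in PPT-5320, with LSL-PCNAATG-fLuc/+ and LSL-R26Tva-lacZ/+ in PPT-5671, and with LSL-R26Tva-lacZ/+ in PPT-16992, PPT-17728 and ASC-53909. The genotype of the remaining 10 lines, of 3 mice, was not listed: HEP-5123 and B-5123, then PPT-15272, LN1-15272, PUL-15272 and B-152727, and PPT-53631, HEP2-53631, PUL3-53631 and B-53631; they entered neither side of the allele comparison, except as a group of their own in 1 alternative fit, and are given by their values. Both Cre drivers act in pancreatic progenitor cells, R172H was heterozygous in the mice, and whether a line kept its other Trp53 allele is not given in the sources used here. Lines of 1 mouse are not independent, so the mouse was a random block in the fits of the allele and of the site. The fit of the IC50 groups had no block. P-values measure the spread between lines and mice of this set.

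The signals were log2 values with an array median between 3.58 and 3.89. Of 6 epithelial markers the mean signal per line ran between 3.72 and 11.49, and ASC-5193 stood lowest. Its Krt8 was at 3.44, Krt18 at 2.46 and Krt19 at 2.87, all under the median of all array values. Its array thus did not show these markers of the labelled cancer type, although Sox9 of the same list was above that median in all 23 lines. The allele comparison is therefore also given without ASC-5193. Of the markers of other cell types, Ptprc of leukocytes, Pecam1 and Cdh5 of endothelium and Cpa1 of acinar cells were below the median of all values, 3.76, in all 23 lines, whereas Cd68 and Ctrb1 were above it in 23, Cela1 in 22 and Cd3e in 20 lines, with medians of 5.16, 4.53, 6.62 and 3.99. The R172H lines and the lines with no listed allele differed in more than the allele: the epithelial mean had a median of 10.71 in R172H lines and of 8.02 in lines with no listed allele, and the mean of 6 mesenchymal and fibroblast markers had a median of 7.02 in R172H lines and of 9.52 in lines with no listed allele. Without ASC-5193 the epithelial mean was 10.18 to 10.92 in R172H lines, against 6.40 to 9.78 in lines with no listed allele. In the comparison without that line the groups were thus also separated by the epithelial mean, which cannot be told apart from the allele. The part of these differences in the results below was not tested.

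The targets Cdkn1a, Mdm2, Ccng1 and Zmat3 had lower mean signals in R172H lines, at unadjusted p-values under 0.05. Cdkn1a was 5.17-fold and Ccng1 3.44-fold lower on the linear scale. None of the 9 targets passed an adjusted p of 0.05 in limma, against 38 of all probe sets (0.0844%), of which 25 were higher and 13 lower in R172H lines. After quantile normalization the split of the calls was 19 higher and 32 lower. At an unadjusted p under 0.05, 4 of the 9 targets were lower and 0 higher in R172H lines, beside 5.11% of all probe sets that were lower. The median log2 fold change of the targets was -0.68 with 8 of 9 below 0, beside 49% of all probe sets and a median of 0.0047.

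Cdkn1a encodes p21, the inhibitor of cyclin-dependent kinases that carries much of the arrest by p53. Its log2 signal in R172H lines was 6.20 in PPT-5193, 6.71 in PPT-3107, 6.98 in PPT-6051, 7.38 in B-6051, 7.45 in PPT-5486 and 9.68 in ASC-5193. Lines with no listed allele had 8.79 in PPT-5320, 9.09 in PPT-5748, 9.52 in ASC-53909, 9.83 in PPT-3250, 9.95 in PPT-17728, 10.08 in PPT-16992 and 10.95 in PPT-5671. Thus 5 of 6 R172H lines lay below every line with no listed allele, and ASC-5193 lay among them. The means were 7.40 ± 1.21 in R172H lines (SD, n = 6) and 9.74 ± 0.71 in lines with no listed allele (SD, n = 7), with a log2 fold change of -2.37 (SE 0.56, 95% interval -3.58 to -1.16, limma adjusted p = 0.139). The call depended on the lines and the fit: without ASC-5193 the log2 fold change was -2.82 (SE 0.35) and the limma adjusted p was 0.0109. Cdkn1a passed in 4 of 22 alternative fits. Among them was the fit of all lines, which kept ASC-5193 and held the lines without a listed genotype as a group of their own. The second probe set of the gene gave -2.10 (SE 0.58). In the 10 lines without a listed genotype the signal ran between 9.89 and 11.39 with a median of 10.50, above all 6 R172H lines.

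Ccng1 encodes cyclin G1, which recruits a phosphatase to Mdm2. By the main probe set of each gene it was the only one of the 9 targets for which the groups did not overlap, as was the case, in this direction, for 0.304% of all probe sets. R172H lines had 8.48 in B-6051, 8.71 in PPT-3107, 8.76 in ASC-5193, 8.82 in PPT-5486, 8.84 in PPT-5193 and 9.24 in PPT-6051. Lines with no listed allele had 9.57 in PPT-5748, 10.21 in PPT-3250, 10.24 in ASC-53909, 10.41 in PPT-17728, 10.46 in PPT-5320, 11.25 in PPT-16992 and 11.98 in PPT-5671. The R172H lines thus lay close together, ASC-5193 included, and the lines with no listed allele were spread over a wider range. The means were 8.81 ± 0.25 in R172H lines (SD, n = 6) and 10.59 ± 0.79 in lines with no listed allele (SD, n = 7). The log2 fold change was -1.78 (SE 0.33, 95% interval -2.49 to -1.07), rank 67 of 45037 by p, with a limma adjusted p of 0.0734, and -1.77 (SE 0.35, limma adjusted p = 0.0639) without ASC-5193. It passed at 0.0429 without PPT-5671, the only line of its mouse, and at 0.0378 without PPT-5748, likewise the only one. The other probe sets of the gene gave -1.44 (SE 0.42) and -1.84 (SE 0.40). In the first of these the groups overlapped, with 6.17 to 7.62 in R172H lines and 6.94 to 9.76 in lines with no listed allele, and in the second they did not, with 6.26 to 7.08 in R172H lines and 7.36 to 10.20 in lines with no listed allele. Lines without a listed genotype had a lowest signal of 10.33, a median of 11.12 and a highest of 11.60, all above the R172H lines.

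**Figure D1:**
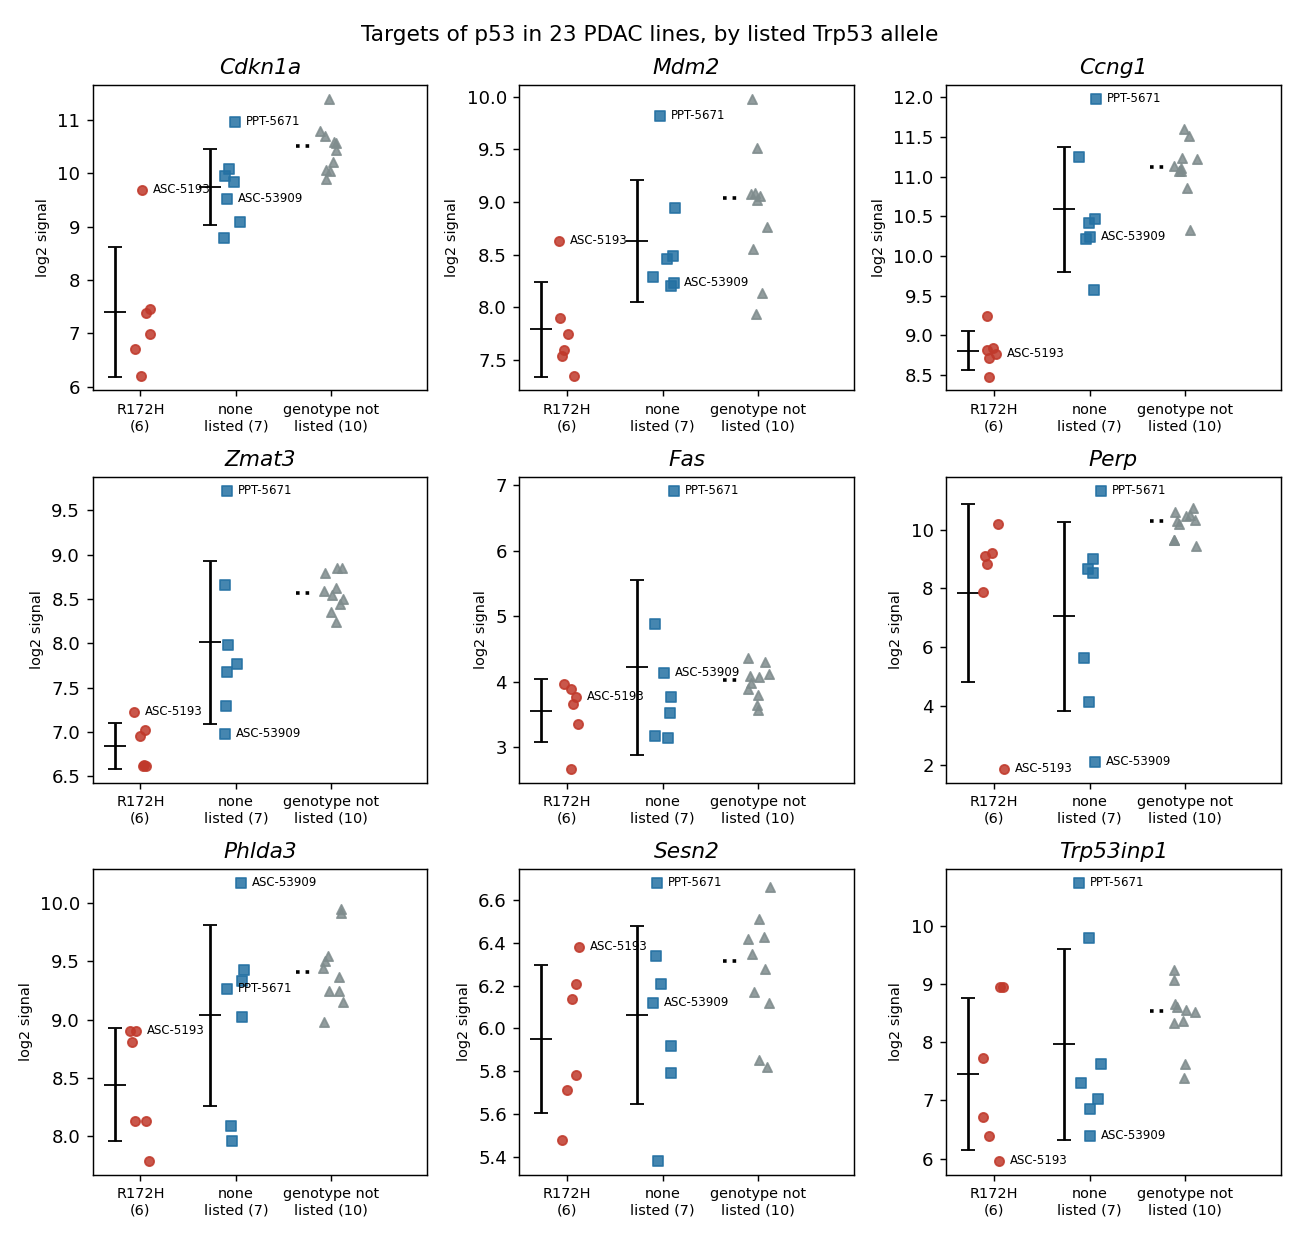
Log2 signal (vertical axis, own scale per gene) of the 9 targets in each line, by listed Trp53 allele. Points are lines, bars beside R172H and none listed give the mean and SD, and the dotted bar beside the lines without a listed genotype gives their median. Ccng1 was at 9.24 or less in every R172H line and at 9.57 or more in every line with no listed allele, and ASC-5193 stood apart from the other R172H lines for Cdkn1a (9.68) and Perp (1.86).

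The sequences of the annotated starts of Cdkn1a and Ccng1 are shown because these genes had the largest negative log2 fold changes of the 9 targets and each window held a pair of adjoining p53 consensus elements of 10 bases. Windows ran over 250 bases before and 50 after a start (RefSeq, GRCm38.p6), and 7 of the 10 genes matched, all but Zmat3, Perp and Trp53inp1, with 8 windows. Capitals mark the 20 bases of the pair, which holds the p53 consensus element 2 times without a gap, with 1 mismatch and with the C and G of both cores intact; the motif reads the same on both strands, so 1 strand was searched. The Cdkn1a window is that of the upstream start, chr17:29090729-29091028 on the plus strand, and the pair lies at chr17:29090928-29090947, beginning 51 bases before the start. The Ccng1 window is chr11:40755237-40755536 on the minus strand, and the pair lies at chr11:40755462-40755481, beginning 195 bases before the start.
Cdkn1a: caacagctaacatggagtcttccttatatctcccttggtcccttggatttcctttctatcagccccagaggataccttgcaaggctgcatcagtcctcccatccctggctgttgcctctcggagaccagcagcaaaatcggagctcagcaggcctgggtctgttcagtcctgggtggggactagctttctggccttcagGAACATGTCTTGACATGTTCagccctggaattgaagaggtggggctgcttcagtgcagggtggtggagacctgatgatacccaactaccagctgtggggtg
Ccng1: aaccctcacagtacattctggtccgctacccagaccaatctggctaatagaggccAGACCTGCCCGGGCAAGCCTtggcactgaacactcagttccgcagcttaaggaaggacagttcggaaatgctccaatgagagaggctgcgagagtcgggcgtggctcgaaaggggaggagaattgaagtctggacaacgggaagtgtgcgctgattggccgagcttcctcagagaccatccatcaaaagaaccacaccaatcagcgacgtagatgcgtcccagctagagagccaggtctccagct
Such a pair was in 22 of 32851 windows (0.067%) and a single element in 8.36%. Single elements were in the windows of Mdm2, Ccng1, Trp53 and the upstream start of Cdkn1a, and none was in those of Phlda3, Sesn2, Fas and the second start of Cdkn1a. These matches describe letters only, and no binding was measured.

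Mdm2 followed Cdkn1a. In R172H lines its signal was 7.35 in PPT-3107, 7.54 in PPT-5193, 7.59 in PPT-6051, 7.75 in B-6051, 7.90 in PPT-5486 and 8.63 in ASC-5193. In lines with no listed allele it was 8.20 in PPT-5320, 8.23 in ASC-53909, 8.29 in PPT-5748, 8.46 in PPT-17728, 8.49 in PPT-3250, 8.94 in PPT-16992 and 9.82 in PPT-5671. As for Cdkn1a, ASC-5193 was the 1 R172H line inside the range of the other group. The log2 fold change was -0.85 (SE 0.29, limma adjusted p = 0.290), and -1.01 (SE 0.26, limma adjusted p = 0.123) without that line. With ASC-5193 left aside, Cdkn1a, Mdm2 and Ccng1 were the 3 targets with no overlap in their main probe sets, beside 0.517% of all probe sets. A second probe set of Mdm2 overlapped even then, since ASC-53909 at 5.85 lay below PPT-5486 at 6.34 and 3 other R172H lines; it gave -0.63 (SE 0.36), and a dim one, with a mean of 2.23, gave -0.0045. Lines without a listed genotype had 7.94 to 9.98 with a median of 9.04, and HEP2-53631 was the lowest.

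Zmat3 encodes a zinc finger protein that binds RNA and was found as a p53 target in murine cells. Its lowest, median and highest signal were 6.62, 6.80 and 7.23 in R172H lines and 6.98, 7.77 and 9.72 in lines with no listed allele. ASC-53909 at 6.98 and PPT-5320 at 7.29 were the low lines of the second group, and ASC-5193 at 7.23 was again the highest R172H line. The log2 fold change was -1.17 (SE 0.38, limma adjusted p = 0.274), and -1.25 (SE 0.40) without ASC-5193. Lines without a listed genotype lay between 8.24 and 8.85, above every R172H line.

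For Fas and Phlda3 the 95% intervals of the difference included 0. Fas, the death receptor, was near the median of all array values: its lowest, median and highest signals were 2.67, 3.72 and 3.97 in R172H lines and 3.14, 3.77 and 6.91 in lines with no listed allele. PPT-5671 was the 1 line with a signal above 5. The log2 fold change was -0.68 (95% interval -1.87 to 0.50, limma adjusted p = 0.692), and -0.23 (SE 0.32) without PPT-5671. Phlda3, an inhibitor of AKT that competes for membrane lipids, had 7.79, 8.47 and 8.90 as lowest, median and highest in R172H lines and 7.96, 9.26 and 10.17 in lines with no listed allele, with a log2 fold change of -0.63 (95% interval -1.40 to 0.13, limma adjusted p = 0.536). The groups overlapped for both genes.

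Sesn2 encodes a sestrin that restrains mTORC1 and limits oxidative stress. By the main probe set of each gene it was the least variable target, at 5.48 to 6.38 in R172H lines and 5.38 to 6.68 in lines with no listed allele. The log2 fold change was -0.11 (95% interval -0.59 to 0.37, limma adjusted p = 0.899). The second probe set of Sesn2 was spread more widely, at 4.29 to 5.86 in R172H lines and 4.88 to 6.75 in lines with no listed allele. Trp53inp1 encodes a stress protein that is known to promote p53-dependent apoptosis and autophagy. Its signal was 5.96 to 8.95 in R172H lines and 6.38 to 10.73 in lines with no listed allele. The log2 fold change was -0.48 (95% interval -2.23 to 1.28, limma adjusted p = 0.877), and these intervals leave room for changes of either sign. Without PPT-5671 the values were -0.0093 for Sesn2 and -0.02 for Trp53inp1.

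Perp encodes a membrane protein of desmosomes, the junctions of epithelial cells, and takes part in p53-dependent apoptosis. It varied most of the 9 targets, with an SD over the lines of 2.65 and rank 139 of 45037 by SD, against a median SD of 0.28 over all probe sets. Its signal was 1.86 in ASC-5193 and 7.87 to 10.21 in the other R172H lines. Lines with no listed allele had 2.10 in ASC-53909, 4.13 in PPT-17728, 5.62 in PPT-3250, 8.52 in PPT-16992, 8.67 in PPT-5748, 9.01 in PPT-5320 and 11.32 in PPT-5671. Both groups thus held lines with a signal near the bottom of the scale and lines with a high one, and the log2 fold change of 0.84 (SE 1.70, limma adjusted p = 0.901) had the other sign from those of the 8 other targets. It was -0.12 (SE 2.13) in the Ptf1aCre/+ lines alone and 1.95 (SE 1.38) without ASC-5193.

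The 4 lines lowest for Perp were also the 4 lowest in the mean of the epithelial markers. That mean was 3.72 in ASC-5193, 7.60 in ASC-53909, 6.40 in PPT-17728 and 7.42 in PPT-3250, and 8.02 to 11.49 in the other lines. Over the 23 lines Pearson's r of Perp with the epithelial mean was 0.86, and with the mean of the mesenchymal and fibroblast markers -0.70. Of single markers, Krt18 had the highest r, 0.89, and Dcn, a proteoglycan of fibroblasts, the lowest, -0.86. The lists were not uniform: Sox9, an epithelial marker, went the other way with -0.37, and Vim, a mesenchymal one, had -0.42. For the other targets r with the epithelial mean lay between -0.10 for Cdkn1a and 0.56 for Trp53inp1. These values share arrays and mice and are given as a description; in RNA of whole cultures, fewer cells of a type and less RNA per cell cannot be told apart.

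**Figure D2:**
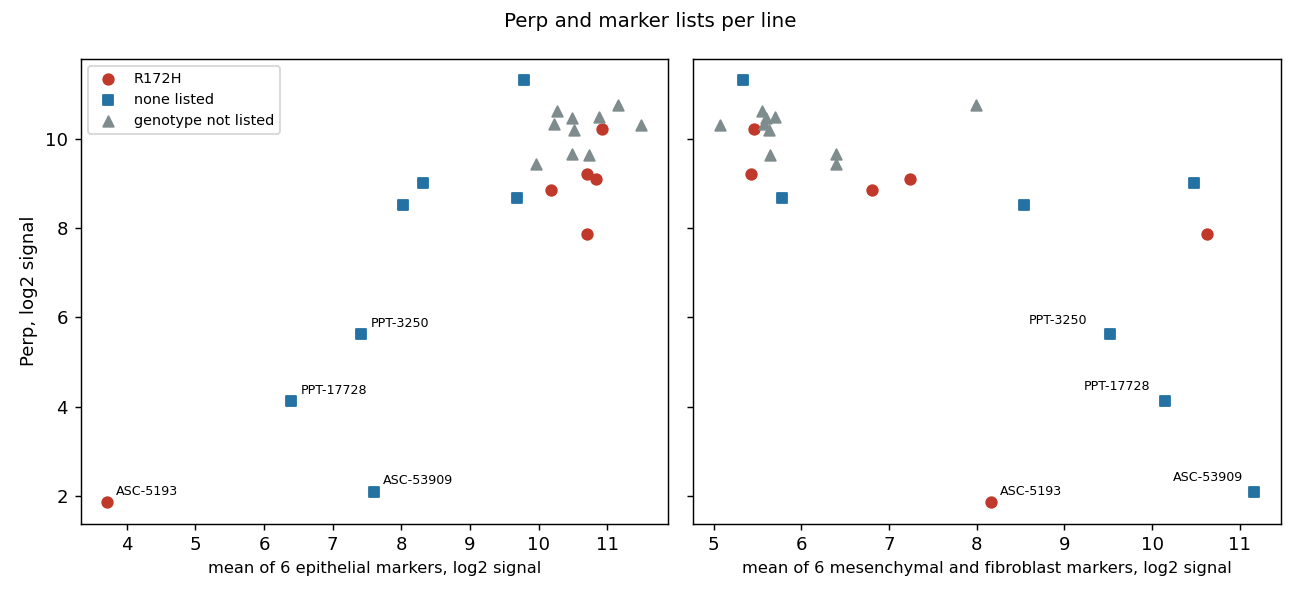
Log2 signal of Perp (vertical axis) against the mean log2 signal of 6 epithelial markers (left) and of 6 mesenchymal and fibroblast markers (right) in 23 lines, with points by listed Trp53 allele. The 4 named lines had Perp between 1.86 and 5.62 and the lowest epithelial means, 3.72 to 7.60.

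Cdkn1a, Mdm2, Ccng1 and Zmat3 went together from line to line. Of the 36 pairs among the 9 targets, 6 had a Pearson's r over 0.8 across the 23 lines, and these were the 6 pairs among the 4 genes, with 0.81 for Mdm2 and Ccng1 as the lowest and 0.90 for Ccng1 and Zmat3 as the highest. Over the 14 mouse means the same pairs had an r of 0.88 to 0.96, and over the 17 lines without the R172H lines of 0.75 to 0.82. Perp had a Pearson's r of 0.10 with Cdkn1a and 0.22 with Mdm2, and Phlda3 of 0.05 with Trp53inp1. By ranks (Spearman's rho) Perp had 0.59 with Cdkn1a and 0.43 with Mdm2, and Phlda3 had 0.03 with Trp53inp1. With Ccng1 and Zmat3 Perp had an r of 0.39 and 0.46 and a rho of 0.56 and 0.64. The lines share mice and arrays, so no p is given.

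ASC-5193, which shares its mouse with the primary tumour line PPT-5193, departed from this pattern. Against PPT-5193 it was 3.48 higher on the log2 scale for Cdkn1a and 1.09 higher for Mdm2, but 0.61 higher for Zmat3 and within 0.08 for Ccng1. Perp was 7.34 and Trp53inp1 1.77 lower in ASC-5193 than in PPT-5193. B-6051 and PPT-6051, also of 1 mouse, differed by 0.40 for Cdkn1a and 0.76 for Ccng1. HEP-5123 and B-5123 differed by 0.34 or less for each of the 9 targets. Of the 4 lines of the mouse of PPT-15272 the one labelled B-152727 was the lowest for Cdkn1a, Mdm2, Ccng1, Zmat3, Perp and Sesn2, and PPT-15272 the highest for Cdkn1a, Mdm2 and Ccng1, with a distance of 1.84 for Mdm2.

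Lines of 1 mouse were closer than mice were to each other for most targets. The SD of the 14 mouse means and the SD within the 5 mice with several lines were 0.92 and 0.21 for Zmat3, 1.08 and 0.39 for Ccng1, and 0.74 and 0.24 for Phlda3. They were 1.39 and 0.91 for Cdkn1a, where PPT-5193 and ASC-5193 were the widest pair. For Sesn2 they were alike, 0.33 and 0.34. No test was made of these differences.

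PPT-5671 was the line with the highest mean over the 9 standardised targets. It was the highest of the 23 lines for Ccng1 (11.98), Zmat3 (9.72), Fas (6.91), Perp (11.32), Sesn2 (6.68) and Trp53inp1 (10.73), and PPT-15272 was the highest for Cdkn1a (11.39) and Mdm2 (9.98). For Phlda3 it was ASC-53909 (10.17). All 10 lines without a listed genotype had a mean above 0, at 0.15 to 1.01, and all 6 R172H lines a mean below it, at -1.35 to -0.50. Lines with no listed allele ran between -0.67 and 1.70, and of these only PPT-16992 (0.25) and PPT-5671 (1.70) were above 0.

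**Figure D3:**
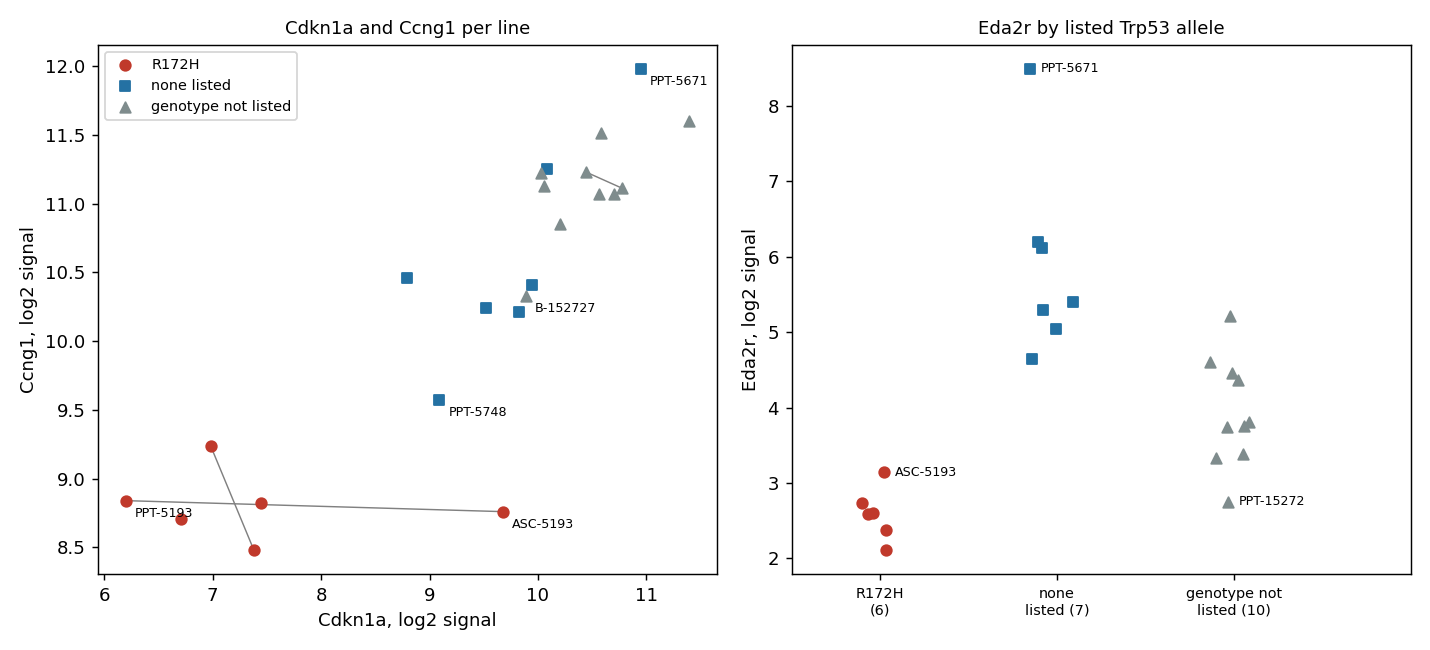
Left, log2 signal of Ccng1 against Cdkn1a per line, with grey lines joining the lines of mice that gave 2. Right, log2 signal of Eda2r by listed Trp53 allele, points are lines. ASC-5193 had Cdkn1a at 9.68 with Ccng1 at 8.76, and Eda2r was at 3.14 or less in R172H lines and at 4.64 or more in lines with no listed allele.

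Other genes of the pathway were read from lists. Of 10 further apoptosis targets 9 were measured, and 8 had a lower mean in R172H lines, beside 49% of all probe sets. At an unadjusted p under 0.05, 2 of the 9 were lower, beside 5.11% of all probe sets. The median log2 fold change was -0.38. Eda2r, a receptor of the TNF receptor family for an isoform of ectodysplasin, was the 1 list gene that passed: it fell in R172H lines. Its signal was 2.11 in B-6051, 2.38 in PPT-5193, 2.59 in PPT-6051, 2.60 in PPT-3107, 2.74 in PPT-5486 and 3.14 in ASC-5193. Lines with no listed allele had 4.64 in PPT-5748, 5.04 in PPT-5320, 5.29 in PPT-3250, 5.40 in ASC-53909, 6.12 in PPT-17728, 6.19 in PPT-16992 and 8.49 in PPT-5671. The groups did not overlap, every R172H line was below the median of all array values, and the log2 fold change was -3.28 (SE 0.52, limma adjusted p = 0.0439), and -3.39 (limma adjusted p = 0.0327) without ASC-5193. With the R172H lines near the bottom of the scale, where the values are compressed, this size is uncertain, and no linear fold is given. The lines without a listed genotype lay between the groups or across them, at 2.75 to 5.21 with a median of 3.78. PPT-15272, the highest line for Cdkn1a and Mdm2, had the lowest Eda2r signal of those 10. The sign held under all 22 alternatives, but the call was lost under 14 of them: with 1 mean per mouse the limma adjusted p was 0.112, in primary tumour lines alone 0.129, and it lay between 0.0529 and 0.215 when PPT-5193 with ASC-5193, PPT-6051 with B-6051, or 1 of PPT-3250, PPT-5320, PPT-16992, ASC-53909, PPT-3107, PPT-5486 and PPT-17728 was left out.

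Aen, a nuclease of apoptosis, had a log2 fold change of -0.55 (SE 0.24, limma adjusted p = 0.411), and Ei24 and Apaf1, the scaffold of the apoptosome, of -0.49 and -0.42. Of 16 targets in arrest, repair, stress and metabolism 15 were measured and none passed. Of these 10 were negative, beside 49% of all probe sets, with a median of -0.38. At an unadjusted p under 0.05, 2 were lower and 1 was higher in R172H lines. Of all probe sets 5.11% were lower at that threshold, and 11.5% passed it in either direction. Ak1, an adenylate kinase, had 2.56, 4.24 and 7.85 as lowest, median and highest signal in R172H lines and 6.12, 8.46 and 9.40 in lines with no listed allele, with a log2 fold change of -3.44 (SE 0.87, limma adjusted p = 0.164); its second probe set, near the bottom of the scale, gave 0.01. Ppm1d, the phosphatase Wip1 that counters p53, had -0.71 (SE 0.19, limma adjusted p = 0.187), and its second probe set gave -0.23 (SE 0.17). Sesn1, a sestrin like Sesn2, had -0.64 (SE 0.31). Tigar, a regulator of glycolysis, had the opposite sign and did not pass: it ran between 5.88 and 6.79 in R172H lines and between 4.87 and 5.86 in lines with no listed allele, with a log2 fold change of 1.00 (SE 0.21, limma adjusted p = 0.110).

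Of 14 regulators of p53, all measured, none passed, 7 had a negative and 7 a positive log2 fold change, and the median was 0.01. Mdm4, the relative of Mdm2 that blocks the activation domain of p53, ran between 6.03 and 6.67 in R172H lines and between 6.57 and 7.07 in lines with no listed allele. Its log2 fold change was -0.50 (SE 0.12, limma adjusted p = 0.163), which its 3 dimmer probe sets did not share, at -0.02 to 0.17. Ep300, an acetyltransferase and coactivator, had 0.59 (SE 0.19, limma adjusted p = 0.276), the kinase Atr -0.42 (SE 0.17) and the kinase Hipk2 0.84 (SE 0.39). The p53 relatives Trp63 and Trp73 had log2 fold changes of 0.23 (SE 0.13) and -0.09 (SE 0.13).

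Genes that p21 and the DREAM complex repress, which drive mitosis, were given as a further list. Of 10 such genes 9 were measured, none passed, and 0 had an unadjusted p under 0.05, beside 11.5% of all probe sets. A lower mean in R172H lines was seen for 7, beside 49% of all probe sets, and the median log2 fold change was -0.17. The mean of the 9 ran between 9.03 and 9.81 in R172H lines and between 8.16 and 10.32 in lines with no listed allele. Aurka, a mitotic kinase, had 0.54 (SE 0.35), Mki67, the proliferation marker Ki-67, -0.31 (SE 0.38), Ccnb2, a mitotic cyclin, -0.33 (SE 0.41) and Cdk1, its kinase, -0.20 (SE 0.31). Over the 23 lines Pearson's r of Cdkn1a with the mean of these genes was -0.04.

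The 5 further genes whose signals were most like the mean of the 9 standardised targets, among 11550 genes with signals above the median of all values in at least 12 lines, were Dcxr, Inka2, Rnf169, Trim11 and Ercc5, with Pearson's r of 0.90, 0.90, 0.89, 0.89 and 0.88 over 23 lines. Dcxr, a carbonyl reductase, had 5.90 to 6.98 in R172H lines, 5.94 to 10.29 in lines with no listed allele and 7.46 to 8.96 in lines without a listed genotype. Inka2 had 3.19 to 3.67 in R172H lines, 3.78 to 5.63 in lines with no listed allele and 4.10 to 5.09 in lines without a listed genotype, and Rnf169, a ubiquitin ligase of DNA repair, 5.04 to 5.93, 5.95 to 7.81 and 6.20 to 6.96 in the same order. Ercc5, a nuclease of excision repair that was also on the list of repair targets, had 5.91 to 6.71 in R172H lines, 6.13 to 8.66 in lines with no listed allele and 6.72 to 7.49 in lines without a listed genotype. Trim11, a ubiquitin ligase, had 5.92 to 6.40, 6.32 to 7.68 and 6.65 to 7.05 in the same order. These genes were chosen for likeness to a mean that was low in R172H lines, so that their lower ranges there are a description, and Inka2 was below the median of all values in all 6 R172H lines.

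The study set lines with a Bez235 IC50 above 10 nmol/L against lines below it, and the allele was not even between them: 1 of 9 lines above the cutoff and 5 of 14 below it were R172H lines. The 23 lines here are fewer than the study used for its own comparison. Among them no probe set passed in limma (0 of 45037, 0%), and 1803 had an unadjusted p under 0.05. This fit had no mouse block, so lines of 1 mouse counted as independent although they are not. With that limit 4 of the 9 targets, Cdkn1a, Mdm2, Phlda3 and Sesn2, were higher above the cutoff at an unadjusted p under 0.05, beside 1.95% of all probe sets. Without the R172H lines the log2 fold change of Cdkn1a was 0.30 (SE 0.30) in place of 1.33 (SE 0.55), that of Mdm2 0.41 (SE 0.26) in place of 0.72 (SE 0.26), and that of Ccng1 -0.01 (SE 0.29) in place of 0.50 (SE 0.44). The values of Sesn2, 0.28 (SE 0.15) in place of 0.35 (SE 0.13), and Fas, 0.58 (SE 0.37) in place of 0.62 (SE 0.31), moved less, although Fas was at 0.30 without PPT-5671, and Trp53inp1 had 1.06 (SE 0.46) in place of 0.74 (SE 0.47). Phlda3 had 0.56 (SE 0.25) in the fit of all lines. It ran between 0.36 and 0.73 in the 20 alternative fits, among them the one without R172H lines. The lines above the cutoff had Sesn2 signals of 5.85, 6.38 and 6.68 as lowest, median and highest, and the lines below it of 5.38, 6.02 and 6.43.

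Between 11 lines of metastases and 12 of primary tumours no probe set passed either (0%), and 1649 had an unadjusted p under 0.05. Phlda3 was the 1 target with an unadjusted p under 0.05, beside 1.88% of all probe sets that were higher in metastasis lines. It had 8.90, 9.37 and 10.17 as lowest, median and highest signal in metastasis lines and 7.79, 8.90 and 9.55 in primary tumour lines, with a log2 fold change of 0.64 (SE 0.21, limma adjusted p = 0.9999). Within the 4 mice that gave both sites, 5 of 8 metastasis lines were above the primary line of their mouse for Phlda3, and a fit within these mice gave a log2 fold change of 0.21 (SE 0.15). For Cdkn1a 4 of 8 were above it and for Ccng1 2 of 8.

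**Figure D4:**
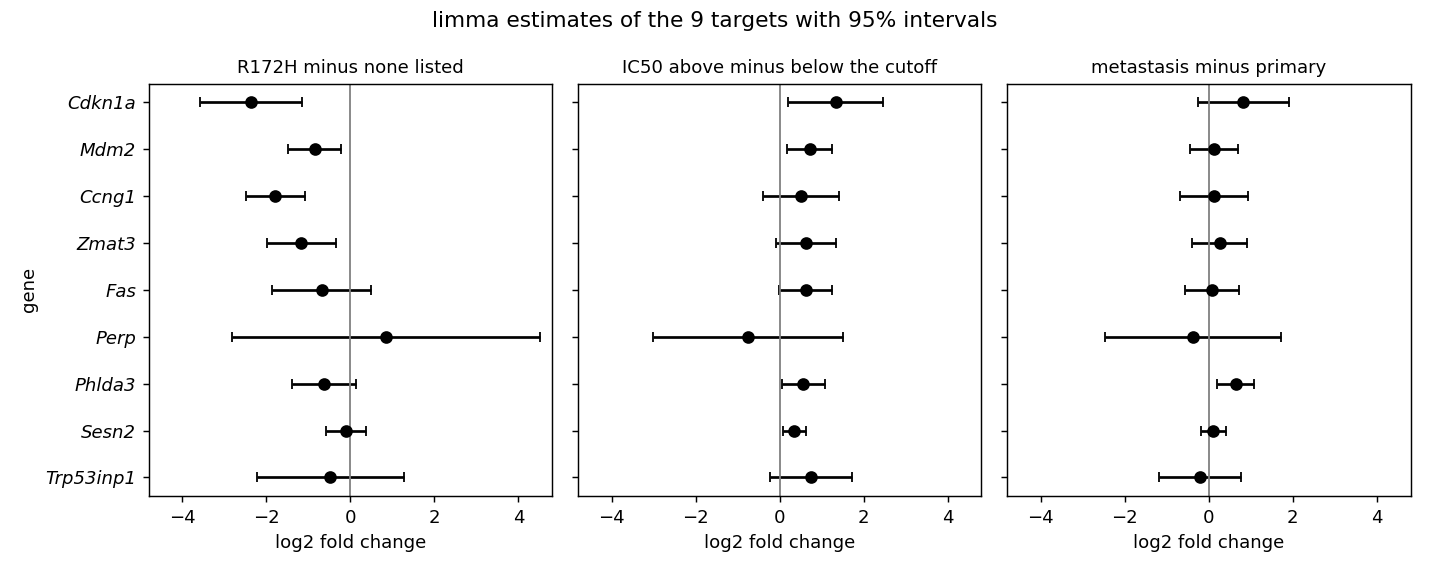
Log2 fold changes of the 9 targets (points) with 95% intervals of limma (bars) for R172H minus none listed, IC50 above minus below the cutoff, and metastasis minus primary tumour lines. In the first panel the intervals of Cdkn1a, Mdm2, Ccng1 and Zmat3 lay below 0, and that of Perp, -2.82 to 4.50, was the widest.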

How the data were processed

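RNA of 23 untreated lines was hybridised to Mouse Genome 430 2.0 arrays, and the authors deposited log2 signals of all probe sets, a column for each line. The supplementary methods name VSN followed by a log2 transform, the submitters' processing notes name RMA, with no version given. Both shrink differences of dim probe sets, and no counts or detection calls enter the values. These deposited log2 signals were taken without further normalization. Of 45101 probe sets 64 controls were left out and 45037 tested; 34945 had 1 symbol, 932 several and 9160 none. The arrays' number limits the precision.

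The Trp53 allele and the IC50 group were looked up by line name in the study's supplemental tables. The mouse was inferred from the number in the line name. The line labelled B-152727 was taken to share the mouse of PPT-15272, and PPT lines were taken as primary tumour lines. limma 3.58.1 in R 4.3.3 (lmFit, eBayes) compared R172H lines with lines with no listed allele and metastasis with primary tumour lines, with the mouse as a random block (correlation 0.252 for the allele and 0.243 for the site), and IC50 groups with no block, as in the methods. P-values were two-sided and adjusted by Benjamini-Hochberg over all 45037 probe sets, with a threshold of 0.05. Values per line, correlations and promoter matches were computed in Python 3.11.15. On simulated arrays of 45037 probe sets the allele fit recovered 9, 31, 42 and 46 of 50 probe sets changed by 0.5, 1, 2 and 4 on the log2 scale, with 6 false calls. No 2 arrays held identical values.

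The genes, the lists and the tests were chosen with earlier results of these data known. The text names all members, the up to 4 genes of each pathway list with the smallest p of the allele comparison, and the 5 genes most like the mean of the targets; of the cell type markers it names those that define a type or stood apart. Bax, Gdf15 and Ccnb1 were on the lists without a probe set of their symbol alone. Alternatives to the fits are given in the closing section. An allele in the listed genotypes is not reported here.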

Additional observations from a re-analysis of the deposited data

Results flagged for a closer look

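In 27 groups of lines, 9 targets in 3 allele groups, the distance of the highest or lowest line from the nearest other was set against the range of its group by Dixon's test; chance marks about 1 group in 20, and 2 were marked. Both were ASC-5193 among the R172H lines. Its Cdkn1a signal was 9.68, against 6.20 to 7.45 in the other 5 lines, with a gap of 0.64 of the range and a critical value of 0.625. Its Perp signal was 1.86, against 7.87 to 10.21 in the others, with a gap of 0.72 of the range.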

How the results depend on the processing

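The number of probe sets that passed between R172H lines and lines with no listed allele, 38, depended on the treatment of mice and lines. It was 104 with no block, 12 with 1 mean per mouse, 236 with the lines without a listed genotype as a group of their own, 2 in Ptf1aCre/+ lines, 97 without ASC-5193, 15 with trended and robust variances and 16 by the methods' t-test after Benjamini-Hochberg (5583 before), and 2 to 67 when each mouse was left out in turn; the cause was not tested, beyond the smaller number of lines in some. Where 1 mouse with 2 lines remained, the block's correlation could not be estimated and 0.252 was kept. For the 9 targets 189 of 198 values kept their sign and their side of the threshold. Cdkn1a passed with that added group (limma adjusted p = 0.0189), in primary tumour lines (0.0415), without ASC-5193 (0.0109) and without both lines of its mouse (0.0462). Ccng1 passed with no block (0.0430), with that added group (0.00812) and without PPT-5671 or PPT-5748. Over all 22 alternatives the adjusted p ran between 0.0109 and 0.525 for Cdkn1a and between 0.00812 and 0.373 for Ccng1. In Ptf1aCre/+ lines Perp turned to -0.12, and in primary tumour lines Ccnb2 turned to 0.066 and Cdk1 to 0.0058. Ak1 passed with that added group (0.0409), and the Eda2r call was also lost in Ptf1aCre/+ lines (0.355), with trended variances (0.0574) and by the t-test (0.0704).

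No probe set passed for the IC50 groups or the site under any alternative run. Without R172H lines Ccng1 turned to -0.0099 and Perp to 0.10 for the IC50 groups, and Perp, at -1.61 to 0.055 when each mouse was left out, turned to 0.055 without PPT-5193 and ASC-5193 and to 0.0034 without ASC-53909. With the mouse as a fixed block, Mdm2 turned to -0.063, Ccng1 to -0.38 and Sesn2 to -0.016 for the site. Fas and the second probe sets near the bottom of the scale have little room to show a fall. Eda2r did fall, but it was under the median of all values in every R172H line, so the size of its fall is uncertain.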
